A study of Homo sapiens with 12 samples.

Results

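Dasatinib is an ATP-competitive kinase inhibitor best known for blocking the ABL and SRC families, and it also binds other kinases. The genes described here encode 9 of its targets outside the SRC family: ABL1, ABL2, CSK, TEC, DDR1, RIPK2, GAK, SIK2 and MAP4K5. They were taken by symbol from the deposited tables of both RCH-ACV clones, and all 9 had a row in each, among 15612 rows for clone 1 and 16848 for clone 2. RCH-ACV is an established human B-cell precursor acute lymphoblastic leukemia line that expresses the pre-BCR. Dasatinib-sensitive cells of each clone were kept in vehicle (0.1% DMSO), and dasatinib-resistant cells in rising concentrations of the drug up to 1 µM. The 4 groups (clone 1 sensitive, clone 1 resistant, clone 2 sensitive, clone 2 resistant) had 3 RNA-seq libraries each and 12 together, whose replicates were repeated RNA isolations of one subline over time.

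The values are the mean normalized counts in the authors' deposited tables, one per gene and clone, pooled over the 6 libraries of that clone. Sensitive and resistant cells are therefore averaged together in every level below, and no level can be assigned to either state. The contrast of resistant with sensitive cells is held in the tables only as the authors' own fold changes and p-values, which were not used here. No value per library was analysed, so no level has an SD, no difference was tested, and the depth of single libraries is unknown. The means sum to 19108037 over the clone 1 table and 24561485 over the clone 2 table, with medians per gene of 406 and 442, and the lowest means listed are 2.52 and 1.13.

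The cell type named by the labels was checked against its markers. All 9 listed B-precursor markers had a row in both tables, and 8 of them lay above the table median. The surrogate light chain gene IGLL1 led them, at 9233 mean normalized counts in clone 1 and 12009 in clone 2, whereas MME, which encodes CD10, had only 67.7 and 67.0. None of the 4 listed T-cell markers (CD3D, CD3E, CD3G, CD2) had a row in either table, nor did the erythroid marker HBB. Of the 4 stromal, endothelial and epithelial markers, EPCAM and KRT18 had no row, and COL1A1 and PECAM1 had mean normalized counts from 30.3 to 214. Of the 4 myeloid markers, MPO, CD14 and LYZ had mean normalized counts between 2.82 and 17.1, while CSF1R had 615 and 768. The part of other cells in any level of the 9 kinases was not tested.

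The 9 kinases belong to separate branches of signaling. ABL1 and ABL2 are non-receptor tyrosine kinases that act on the cytoskeleton and on adaptor proteins. CSK is the kinase that phosphorylates the inhibitory tail of SRC family members, and TEC belongs to the family of BTK, which works below the B-cell receptor. DDR1 is a receptor tyrosine kinase for collagen. RIPK2 relays signals of the NOD receptors to NF-κB, GAK acts in clathrin vesicle traffic, SIK2 is a salt-inducible kinase controlled by LKB1, and MAP4K5 feeds the JNK cascade.

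All 9 kinases were expressed well above the lower end of the tables in both clones. Every one reached a mean normalized count of 50, a level reached by 76.5% of all rows in clone 1 and 73.0% in clone 2. In clone 1 the counts ran from 396 (RIPK2) to 3083 (ABL1) with a median of 991 (ABL2), and in clone 2 from 451 (DDR1) to 3671 (ABL1) with a median of 1254 (ABL2). The median percentile among all rows of the table was 71.3 in clone 1 and 72.9 in clone 2. In clone 1, 7 of 9 lay above the table median, and in clone 2 all 9 did, but DDR1 and RIPK2 sat close to that median in both, at percentiles from 49.4 to 53.4. Together the 9 genes took 576 of every 1000000 normalized counts in the clone 1 table and 563 in the clone 2 table.

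**Figure D1:**
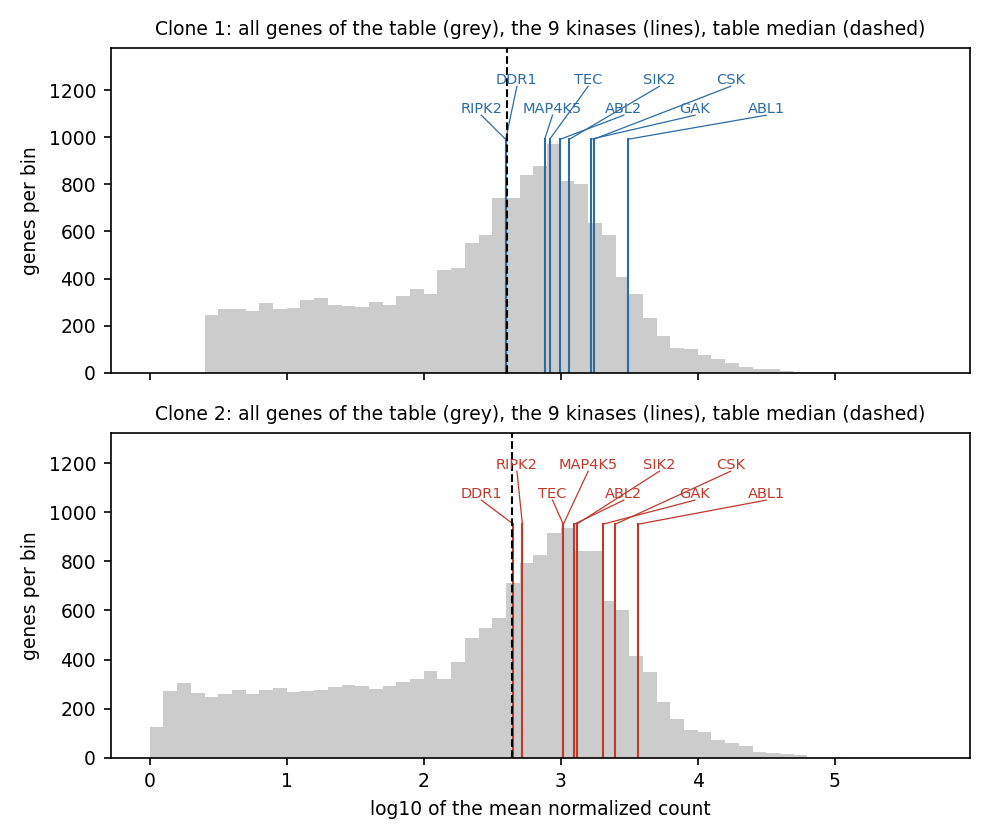
Histogram of the log10 mean normalized count of all genes in the clone 1 table (upper panel) and the clone 2 table (lower panel), with the y axis giving genes per bin, a line for each of the 9 kinases and a dashed line for the table median. RIPK2 and DDR1 lie next to the median in both panels, and ABL1 lies highest at 3083 and 3671.

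A longer transcript collects more reads, so the kinases were compared with each other per kilobase of exon. CSK had the highest level per kilobase in both clones, at 555 mean normalized counts per kilobase in clone 1 and 799 in clone 2. ABL1 came next at 491 and 585 per kilobase, followed by GAK at 359 and 440. A middle group held TEC at 225 and 282 per kilobase, MAP4K5 at 175 and 240 and RIPK2 at 153 and 203. SIK2 gave 119 and 135 per kilobase, ABL2 78.4 and 99.1, and DDR1 74.4 and 84.6. The highest level per kilobase was 7.46 times the lowest in clone 1 and 9.44 times in clone 2. All 9 genes held the same place in the order per kilobase in both clones. By count, TEC and MAP4K5 exchanged places between the clones, as did DDR1 and RIPK2. Since each level is a single pooled value, whether neighbors in the order per kilobase differ beyond the spread between libraries cannot be judged. The closest pair was ABL2 and DDR1, whose levels per kilobase differed 1.05-fold in clone 1 and 1.17-fold in clone 2, and their places were exchanged when the longest coding transcript was used as the length. The widest step was between GAK and TEC, at 1.60-fold in clone 1 and 1.56-fold in clone 2.

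**Figure D2:**
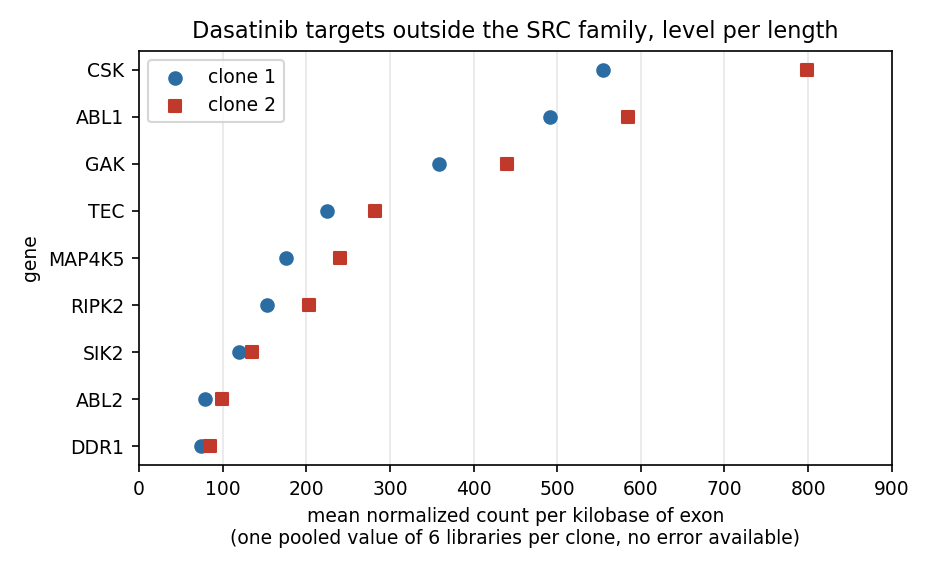
Mean normalized count per kilobase of exon (x axis) for the 9 kinases (y axis), with a circle for clone 1 and a square for clone 2; each symbol is one pooled value of 6 libraries, so there are no error bars. CSK is highest at 555 and 799 per kilobase, and DDR1 lowest at 74.4 and 84.6.

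The length correction changed the picture most for ABL2 and SIK2, whose transcripts are long. With 12649 exonic bases, ABL2 fell from percentile 71.3 by count to 41.3 per kilobase in clone 1, and from 72.9 to 45.0 in clone 2. SIK2, with 9678 exonic bases, went from 74.9 to 49.7 in clone 1 and from 73.9 to 50.9 in clone 2. CSK, with 3134 exonic bases, hardly moved, at percentiles 83.7 by count and 84.5 per kilobase in clone 1 and 86.7 and 87.2 in clone 2. Per kilobase, 6 of the 9 kinases lay above the table median in clone 1 (121 per kilobase) and 7 in clone 2 (129 per kilobase).

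Of the ABL pair, ABL1 carried most of the transcript. ABL1 is the kinase whose fusion with BCR drives chronic myeloid leukemia, and ABL2 is its closest relative. The mean normalized count of ABL1 was 3083 in clone 1 and 3671 in clone 2, which places it at percentiles 92.1 and 92.1 of the tables. ABL2 had mean normalized counts of 991 and 1254. Per kilobase, ABL1 exceeded ABL2 6.27-fold in clone 1 and 5.90-fold in clone 2. Among partners of the ABL kinases, the adaptors GRB2 and CRKL had 914 and 556 mean normalized counts per kilobase in clone 1 and 1098 and 711 in clone 2. The actin regulator WASF2 had 665 and 853 per kilobase. ABI1, an ABL-binding adaptor of the WAVE complex, had 471 and 634, and CRK had 215 and 302. Of the 8 partners listed for ABL1, 7 lay above the table median by count in each clone, and of the 6 listed for ABL2, 4 did.

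CSK, the negative regulator of SRC family kinases, was listed at a mean normalized count of 1740 for clone 1 and 2503 for clone 2. MATK, the other kinase of its family, had no row in either table. Of 6 partners listed for CSK, 3 lay above the table median by count in clone 1 and 4 in clone 2. The adaptors LIME1 and PAG1, which can recruit CSK to membranes, had 339 and 138 mean normalized counts per kilobase in clone 1 and 460 and 200 in clone 2. The phosphatase PTPN12, which binds CSK, had 182 and 253 per kilobase. Each of these was below CSK itself in the same table.

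TEC was present at a lower level than BTK, the kinase of the same family that is central to B cells. The mean normalized count was 829 for TEC against 3736 for BTK in clone 1, and 1042 against 4812 in clone 2. Per kilobase, BTK stood 5.37-fold above TEC in clone 1 and 5.50-fold in clone 2. TXK, a further member, had 43.0 and 63.2 mean normalized counts per kilobase. BMX had no row in either table. All 5 partners listed for TEC lay above the table median by count in both clones. Per kilobase, PLCG2 lay below the table median in clone 1 and above it in clone 2. The PI3K adaptor PIK3AP1 was highest at 1784 and 2213 per kilobase, and the exchange factor VAV1 had 615 and 792 and the B-cell linker BLNK 497 and 802.

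Of the collagen receptors, DDR1 was listed near the table median by count and DDR2 near the lower limit. Per kilobase, DDR1 lay below the table median, at percentile 40.3 in clone 1 and 42.6 in clone 2. In clone 1 the mean normalized count was 397 for DDR1 and 5.31 for DDR2, and in clone 2 it was 451 and 7.27. The ligands listed for DDR1 were low or had no row. COL1A1 had 21.5 and 31.8 mean normalized counts per kilobase, COL4A1 had 2.83 and 4.85, and COL1A2 and COL3A1 had no row in either table. SHC1, an adaptor listed as its partner, had 527 and 639 per kilobase.

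RIPK2 was listed at a mean normalized count of 396 for clone 1 and 525 for clone 2. Its level per kilobase was near that of RIPK1, the kinase of the TNF receptor complex, which had 136 and 200 against 153 and 203 for RIPK2. By count RIPK1 was higher than RIPK2, at 566 in clone 1 and 834 in clone 2. RIPK3, which acts in necroptosis, had 44.6 and 50.5 per kilobase, and RIPK4 had no row. Of 8 partners listed for RIPK2, 6 had a row in clone 1 and 7 in clone 2, and 5 lay above the table median by count in each. TAB2, an adaptor of the kinase TAK1, had 234 and 345 mean normalized counts per kilobase, and the ubiquitin ligases BIRC2 and XIAP had 135 and 125 in clone 1 and 179 and 157 in clone 2. The receptors NOD1 and NOD2, which signal through RIPK2, are among these 8 partners and were picked for naming after the values were seen. NOD1 had 38.2 and 57.0 per kilobase, and NOD2 had no row in either table.

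For GAK the mean normalized count was 1654 (clone 1) and 2027 (clone 2). It stood above each of its 3 listed relatives per kilobase in both clones. BMP2K, AAK1 and STK16 had 149, 109 and 64.9 mean normalized counts per kilobase in clone 1 and 156, 124 and 89.9 in clone 2, against 359 and 440 for GAK. By count, AAK1 was closer to GAK, at 1449 in clone 1 and 1649 in clone 2, and stood above BMP2K at 732 and 771. HSPA8, the chaperone that strips clathrin from vesicles together with GAK, had 23452 and 29054 per kilobase. The clathrin light chain CLTA had 2542 and 3454, and AP2M1, a clathrin adaptor subunit that GAK can phosphorylate, had 2256 and 3099. By count, 7 of the 8 partners listed for GAK lay above the table median in both clones.

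For SIK2 the mean normalized count was 1154 (clone 1) and 1307 (clone 2). Per kilobase, SIK3 exceeded SIK2 1.37-fold in clone 1 and 1.54-fold in clone 2, while SIK1 reached 0.437 and 0.610 of the SIK2 level. The excess of SIK3 depends on the length correction. By count, SIK3 had 1039 in clone 1, below SIK2, and 1329 in clone 2, slightly above it. All 9 partners listed for SIK2 lay above the table median by count in both clones. They include the upstream kinase complex and the CRTC and class IIa HDAC proteins that salt-inducible kinases phosphorylate. Per kilobase, CRTC1 and HDAC4 lay below the table median in both clones, and CRTC3 did in clone 1. HDAC7 was highest at 607 and 827 mean normalized counts per kilobase, CAB39, a subunit of the LKB1 complex, had 488 and 573, and HDAC5 had 401 and 458.

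Clone 1 gave MAP4K5 a mean normalized count of 763 and clone 2 gave 1044. Within its family it ranked per kilobase in both clones below MAP4K4 at 973 and 1302 and MAP4K1 at 409 and 375, and above MAP4K3 at 93.5 and 121 and MAP4K2 at 75.3 and 91.4. All 4 relatives lay above the table median by count. Per kilobase, MAP4K3 and MAP4K2 lay below the table median in both clones. MAP3K1, a kinase of the JNK cascade, had 956 and 1202 mean normalized counts per kilobase, the adaptor TRAF2 had 350 and 434, and MAP2K7, which phosphorylates JNK, had 348 and 431. Of the 6 partners listed for MAP4K5, 5 lay above the table median by count in clone 1 and 6 in clone 2.

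**Figure D3:**
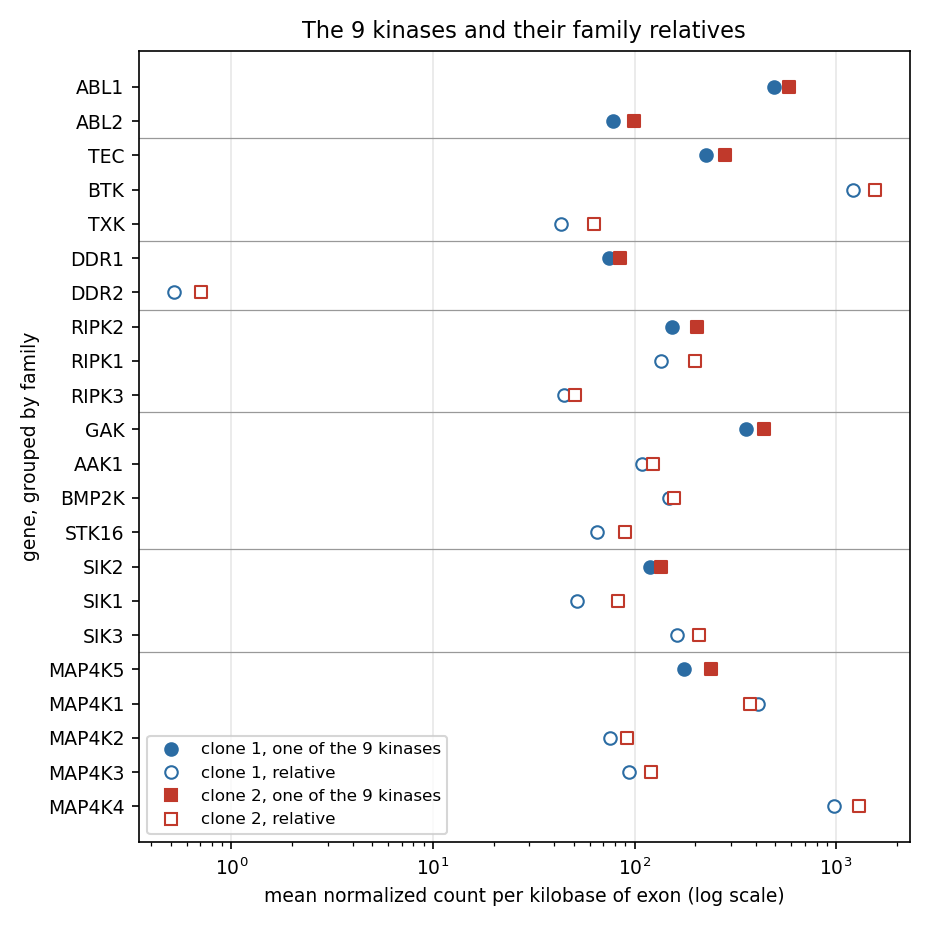
Mean normalized count per kilobase of exon (x axis, log scale) for the 9 kinases (filled) and their listed relatives (open), grouped by family, with circles for clone 1 and squares for clone 2. CSK is not drawn because MATK had no row. BTK, SIK3, MAP4K1 and MAP4K4 lie above the kinase described from their family in both clones, and DDR2 lies near the lower limit.

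The levels in both clones were then set side by side. The tables were normalized separately, so the ratios of clone 2 over clone 1 were divided by the median ratio (1.29) of the 13917 genes whose mean normalized counts reached 10 in each table. None of the 9 kinases passed 1.5-fold in either direction, where 2.70% of these genes were past 1.5-fold higher in clone 2 and 2.24% past 1.5-fold lower. Of all these genes 95.1% lay within 1.5-fold, so 9 of 9 within that range is near the background. The rescaled ratio was highest for CSK at 1.11, followed by MAP4K5 at 1.06 and RIPK2 at 1.03. It was 0.979 for ABL2, 0.972 for TEC, 0.949 for GAK, 0.922 for ABL1, 0.880 for DDR1 and 0.877 for SIK2. These 9 ratios spanned percentiles 13.1 (SIK2) to 83.2 (CSK) of all genes. Which side of 1 a ratio falls on depends on the scaling, since all 9 were above 1 in the values as deposited, at 1.13 to 1.44, and RIPK2 was at 0.990 when 12 reference genes set the scale. With no values per library these ratios were not tested. Clone cannot be told apart from the separately normalized set or from different sensitive and resistant levels inside a pooled mean. The library titles also carry a letter, A for every clone 1 library and B for every clone 2 library. The sources used here do not say what the letter stands for, and clone cannot be told apart from it.

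**Figure D4:**
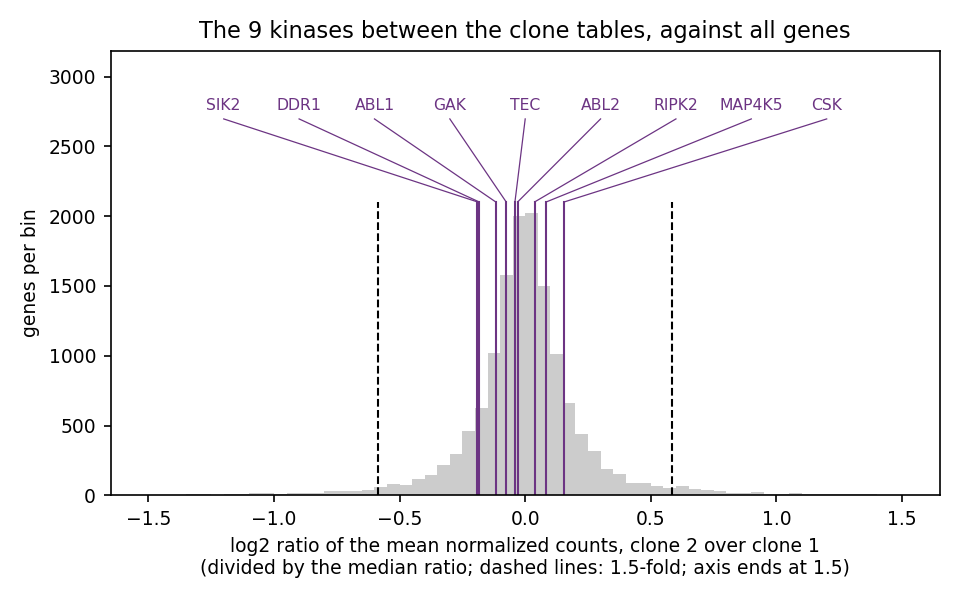
Log2 ratio of the mean normalized counts of clone 2 over clone 1, divided by the median ratio, for 13917 genes (grey, y axis genes per bin) with a line for each of the 9 kinases and dashed lines at 1.5-fold. The kinases lie between ratios of 0.877 (SIK2) and 1.11 (CSK), inside the dashed lines.

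Sequence that the 9 genes share with others could make their counts uncertain, and little was found. In GENCODE 29, none of the windows of 50 bases in the longest coding transcript of ABL1, CSK, TEC, DDR1, RIPK2 or GAK occurs in a transcript of another gene, on either strand. The share was 1.15% for ABL2, 2.31% for SIK2 and 1.95% for MAP4K5. SIK2 overlaps exons of PPP2R1B on the opposite strand over 1.53% of the exonic bases of all its annotated transcripts, a wider set than the lengths above, and MAP4K5 overlaps ATL1 and a long noncoding RNA over 3.54% of such bases. The strand setting of the counting is not given in the sources used here, so a small part of the reads of SIK2 and MAP4K5 cannot be told apart from those of these neighbors. DDR1 overlaps the microRNA gene MIR4640 on its own strand over 0.987% of the exonic bases of all its transcripts.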

How the data were processed

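Libraries came from a stranded mRNA kit. Without roles, the submitters' processing notes list hg19, DESeq2, FastQC 0.10.1, bedtools 2.19.0, Picard 1.107, SAMtools and BWA in versions 0.7.7-r441 and 0.6.2-r126. Not given in the sources used here are the annotation, the counting program and its strand setting. Each deposited table holds the signal used here. It is a mean of size-factor-normalized gene counts, which by the DESeq2 column name the authors took over all 6 libraries of a clone. The other 7 columns beside the symbol hold the authors' comparison of resistant with sensitive cells (log2 fold change, standard error, statistic, p-value, adjusted p-value, its logarithm and a direction) and were not used.

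The plan foresaw no test on pooled values. Computed here in Python 3.11.15 with pandas 2.3.3 were percentiles within a table, levels per kilobase and ratios between the tables. Rows that shared a symbol (2 per clone) were left out, and 21 and 22 symbols replaced by calendar dates were kept as they stood. Lengths were the union of exons in the basic set of GENCODE 29 (GRCh38), matched for 94.8% of 16874 symbols. These were used as lengths only, since the build differs from hg19, and no coordinates are given. The scaling between tables was run on simulated data drawn from the clone 1 means with a known factor. That run checks the code only, since it had no spread between libraries and no pooling of sensitive with resistant cells. A fold of 1.5 was the limit between clones. Alternatives were minimum means of 10 and 50, other scalings and other lengths. The other lengths were tried for the 9 kinases only. The numbers of partners and relatives above the table median were taken by count, without length. All 9 genes, every listed relative and the 3 partners with the highest level per kilobase (clone 1) were named, except listed genes not reported here. The genes and lists were chosen with earlier results of these data known. Likeness of pattern to other genes was not computed from 2 pooled values.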

Additional observations from a re-analysis of the deposited data

How the results depend on the processing

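The place of the 9 kinases within a table depended on the background and the scale. Their median percentile was 71.3 in clone 1 and 72.9 in clone 2. It was 68.0 and 68.1 among genes whose mean normalized count reached 10, 62.5 and 62.9 among those that reached 50, and 59.0 and 63.5 per kilobase of exon. With the longest coding transcript as the length, a choice made after seeing the data, it was 55.5 and 59.6. The number above the table median was 6 or 7 of 9 under these settings in both clones, against 7 and 9 over all rows. Between the tables, none passed 1.5-fold in either direction with scaling by totals, by 12 reference genes, by the median without a minimum, or with no rescaling. Without length, 8 of 9 kinases changed place in clone 1 and 7 in clone 2, and with the longest coding transcript 2 did in each. No paired analysis was possible because no value per library was analysed, and for the same reason no replicate could be left out. The depth of single libraries is unknown, so no counting error is given for the pooled levels.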

Other observations

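A few genes around these kinases were picked after their values were seen. PTPRC encodes CD45, the phosphatase that opposes CSK on SRC family kinases, and had mean normalized counts of only 3.67 in clone 1 and 14.5 in clone 2, against 1740 and 2503 for CSK. Of the 51 listed partners whose mean normalized counts reached 10 in both tables, which leaves out PTPRC, 1 was past 1.5-fold between the tables, where 2.70% of all 13917 such genes were past it higher and 2.24% lower in clone 2. It was the phosphatase PTPN22, a binding partner of CSK, with mean normalized counts of 132 and 108 and a rescaled ratio of clone 2 over clone 1 of 0.635. PLCG2, the phospholipase activated by TEC and BTK, had mean normalized counts of 861 and 1575 and the highest rescaled ratio of these 51 partners, 1.42. Among the 13 relatives that reached the same minimum, MAP4K1 had the lowest rescaled ratio at 0.709 and SIK1 the highest at 1.22. These are single pooled values per clone and were not tested.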
